A study of Mus musculus with 9 samples.

Results

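The activin, inhibin and follistatin genes are a group of 9 genes taken by name: the ligand subunits Inha, Inhba and Inhbb, the follistatin family genes Fst, Fstl3 and Fstl1, and the activin receptors Acvr1b, Acvr2a and Acvr2b. On an Affymetrix mouse expression array they were measured by 17 of the 45037 probe sets tested. A probe set is a group of short probes to a transcript, and its signal is given on the log2 scale, on which a difference of 1 is a doubling. A probe set was taken as detected where it reached a log2 signal of 5 on at least 1 array. By this measure 14 of the 17 probe sets were detected, and 8 of the 9 genes were among the 16180 genes that had a detected probe set of their own.

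The arrays held total RNA of testes from mice of 24 weeks of age on the C57BL/6J background, 5 from Tmem203 null mice and 4 from WT mice. Tmem203 encodes a membrane protein of the endoplasmic reticulum, and the study asked which testis transcripts differ when it is missing. In the null allele the start codon and an adjoining part of the leader were replaced, and after removal of the selection cassette a fragment of the vector with an FRT site stayed in place. The change is in the germline, so it is carried by every cell of the mouse. Left and right testes were collected individually, and nothing in the labels says that each array is a separate animal. The p-values therefore rest on the variation among these arrays, which may in part be technical. In whole testis, fewer cells of a type and less RNA per cell cannot be told apart.

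Activins and inhibins are dimeric hormones of the transforming growth factor beta superfamily. Activins join a pair of beta subunits (from Inhba or Inhbb), whereas inhibins join the alpha subunit (from Inha) to a beta subunit. Activin binds a type II receptor (Acvr2a or Acvr2b), which recruits the type I receptor Acvr1b and leads to activation of the transcription factors Smad2 and Smad3. Inhibin opposes activin at the type II receptors, and follistatin binds activin and keeps it from its receptors. In the adult testis the Sertoli cell, the somatic cell that supports germ cells, is the main source of inhibin B, the dimer of the alpha and beta B subunits that restrains pituitary follicle-stimulating hormone.

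The Tmem203 probe set 1426277_at was lower on the Tmem203 null arrays (labelled KO), at 9.06 to 9.13, than on the WT arrays, at 9.67 to 9.93 (log2 fold change −0.70, adjusted p = 2.87e-04 by limma). Where its probes lie relative to the replaced part is not given in the sources used here. Array medians were 7.01 to 7.05 in Tmem203 null and 6.96 to 7.03 in WT arrays, and the number of arrays limits the precision. WT replicate 3 had the highest score on the second principal component, 33.2, with WT replicates 1 and 4 lowest, at −24.5 and −22.0. It also had the highest mean of 3 adipocyte markers, 8.30, against 7.36 to 7.66 in the other WT arrays. That mean was 7.21 to 7.54 in Tmem203 null arrays. Of the 3 markers, Fabp4 and Cidec were highest on WT replicate 3, whereas Adipoq was highest on WT replicate 2. The 3′ minus 5′ difference of the Gapdh control probe sets is a sign of RNA quality. It was 0.85 ± 0.04 in Tmem203 null and 0.93 ± 0.01 in WT arrays (SD, n = 5 and 4). The groups did not overlap on it, at 0.81 to 0.90 in Tmem203 null and 0.92 to 0.95 in WT arrays. They did overlap on the same difference of the beta-actin control probe sets, at 0.54 to 0.62 in Tmem203 null and 0.56 to 0.65 in WT arrays. The part of RNA quality in the results was not tested.

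Of the 17 probe sets, 2 were higher in Tmem203 null testes at an adjusted p under 0.05, 1 of Fst and 1 of Inha, and 0 were lower (limma). At an adjusted p under 0.05, 4.12% of all probe sets passed as higher and 3.36% as lower. At an unadjusted p under 0.05 the counts among the 17 were 4 higher and 1 lower. The share of all probe sets at that unadjusted threshold was not counted. The largest p among those counted, 0.0309 for Inhba probe set 1458291_at (limma), ranked only 8318 among the 45037 probe sets tested, so p-values of this size were common. Fst, which encodes follistatin, was the 1 gene that also met the thresholds of the study's methods, a change of at least 1.5-fold with a detected signal, against 1.44% of all genes called higher and 1.18% called lower. The log2 fold change was positive for 11 of the 17 probe sets and negative for 6. Every Tmem203 null array lay above every WT array for 3 probe sets (of Fst, Inha and Inhbb), against 5.68% of all probe sets, and below every WT array for 1 (of Inhba), against 6.07%.

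**Figure D1:**
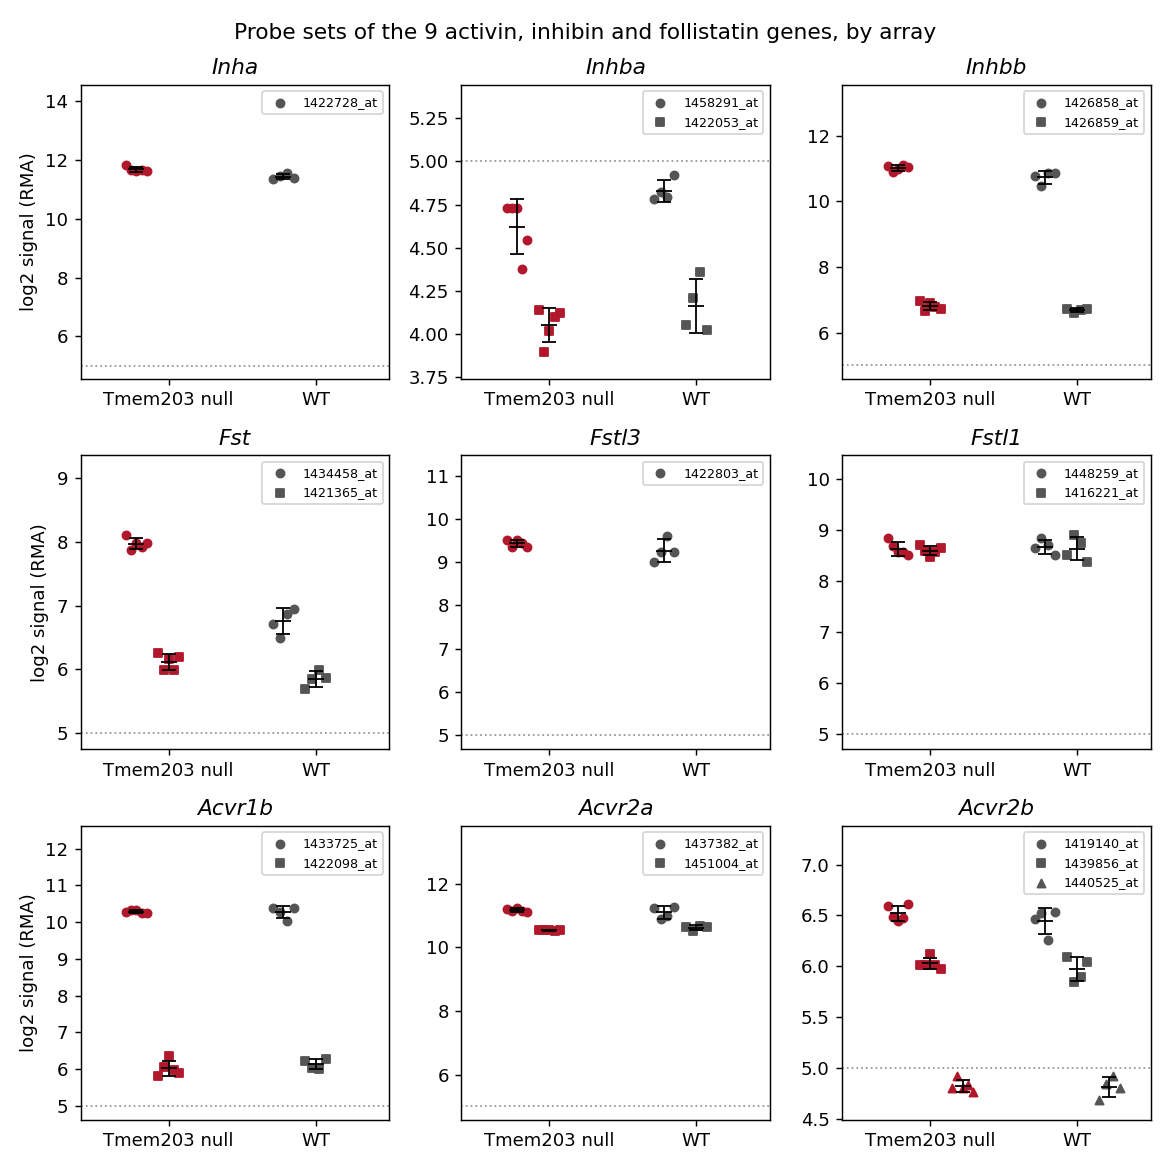
Log2 signal (RMA) of the 17 probe sets of the 9 genes on each array, Tmem203 null in red and WT in grey, with a marker shape for each probe set, the group mean as a short line, and bars of 1 SD (n = 5 and 4). The dotted line is the detection level of 5; the gap between groups is widest for Fst probe set 1434458_at (7.88 to 8.11 in Tmem203 null, 6.48 to 6.95 in WT), and both Inhba probe sets lie under the line on all arrays.

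Follistatin showed the largest change among the 9 genes. Fst probe set 1434458_at had log2 signals of 8.11, 7.88, 7.98, 7.92 and 7.98 in Tmem203 null replicates 1 to 5, against 6.71, 6.48, 6.87 and 6.95 in WT replicates 1 to 4. All 5 null arrays lay above all 4 WT arrays, and the null arrays were close together while WT replicate 2 was the lowest. The means were 7.97 ± 0.09 in Tmem203 null and 6.75 ± 0.21 in WT (SD, n = 5 and 4). The log2 fold change was 1.22 (SE 0.09, 95% interval 1.01 to 1.42), or 2.33-fold (2.02 to 2.68), with an adjusted p of 9.38e-05 by limma. It ranked 43 by p among all probe sets tested. The change stayed past the threshold when any single array was left out, at 1.13 to 1.28 on the log2 scale.

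The other Fst probe set moved in the same direction by less. Probe set 1421365_at gave 6.25, 5.99, 6.16, 5.98 and 6.20 in Tmem203 null arrays, against 5.68, 5.85, 5.99 and 5.87 in WT arrays. Here the groups met, since WT replicate 3 at 5.99 lay level with the lowest null arrays. Its log2 fold change was 0.27 (SE 0.08, 95% interval 0.09 to 0.45) with an adjusted p of 0.0723, and without WT replicate 3 it was 0.32 with an adjusted p of 0.0439 (limma).

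The gap between the Fst probe sets was taken on each array, as 1434458_at minus 1421365_at, after the values had been seen. It was 1.86 ± 0.06 in Tmem203 null arrays (1.78 to 1.93) and 0.91 ± 0.20 in WT arrays (0.63 to 1.08), a difference of 0.95 (SD, n = 5 and 4). In a two-sided exact permutation test over arrays p was 0.00794, the smallest that 126 arrangements allow. Adjusted over the 6 genes with such a pair (Benjamini-Hochberg), it was 0.0476. The probe sets of Fst thus reported unequal changes, and which transcript forms each one covers is not given in the sources used here. Probe set 1421365_at lay nearer the detection level, at 5.98 to 6.25 in Tmem203 null and 5.68 to 5.99 in WT arrays. The part of signal level in the unequal changes was not tested. The same gap was computed for the 5 other genes with at least 2 detected probe sets, and for Inhbb, Fstl1, Acvr1b, Acvr2a and Acvr2b it differed between the groups by 0.00 to 0.16, with unadjusted exact permutation p of 0.0952 to 0.984.

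Fstl3 encodes a secreted activin-binding protein related to follistatin. Its probe set 1422803_at had log2 signals of 9.52, 9.35, 9.51, 9.44 and 9.36 in Tmem203 null arrays, against 8.99, 9.23, 9.62 and 9.24 in WT arrays. The null arrays lay above 3 of the WT arrays and below WT replicate 3. The log2 fold change was 0.17 (SE 0.11, 95% interval −0.07 to 0.40) and did not pass, with an adjusted p of 0.392. It was 0.28 with an adjusted p of 0.0476 without WT replicate 3, and 0.08 with an adjusted p of 0.666 without WT replicate 1 (limma).

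Fstl1 encodes a secreted glycoprotein that carries a follistatin-like domain. Probe set 1448259_at ranged over 8.51 to 8.85 in Tmem203 null and 8.51 to 8.84 in WT arrays, and its log2 fold change was −0.04 (95% interval −0.23 to 0.15, adjusted p = 0.831 by limma). Probe set 1416221_at ranged over 8.47 to 8.71 in Tmem203 null and 8.38 to 8.90 in WT arrays, with the same log2 fold change of −0.04 (95% interval −0.26 to 0.18, adjusted p = 0.853). The groups overlapped throughout on both probe sets.

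Among the ligand subunits, the inhibin alpha subunit was higher in Tmem203 null testes by a small amount. Inha probe set 1422728_at had log2 signals of 11.81, 11.67, 11.64, 11.64 and 11.64 in Tmem203 null arrays, against 11.35, 11.46, 11.54 and 11.38 in WT arrays. No null array reached down to the WT range, and the gap between the nearest arrays of both groups was small beside that of Fst. The means were 11.68 ± 0.08 in Tmem203 null and 11.43 ± 0.08 in WT (SD, n = 5 and 4), a log2 fold change of 0.25 (SE 0.06, 95% interval 0.11 to 0.38), or 1.19-fold, with an adjusted p of 0.0345 by limma. The size of the change held when an array was left out, at 0.21 to 0.28, but it passed in only 1 of these 9 fits, that without WT replicate 3 (adjusted p 0.0204 to 0.0819). It passed in 5 of the 7 other alternative fits, and with each array centred on its median the log2 fold change was 0.22 with an adjusted p of 0.0771.

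Inhbb, which encodes the beta B subunit shared by activin B and inhibin B, gave separate groups without passing the threshold. Probe set 1426858_at had 11.06, 10.88, 10.98, 11.09 and 11.04 in Tmem203 null arrays, against 10.76, 10.45, 10.85 and 10.86 in WT arrays. The lowest null array lay just above WT replicates 3 and 4, and WT replicate 2 lay well below the rest. The log2 fold change was 0.28 (SE 0.09, 95% interval 0.08 to 0.47) with an adjusted p of 0.0848, and without WT replicate 2 it was 0.19 with an adjusted p of 0.149 (limma). The second Inhbb probe set, 1426859_at, overlapped between groups at 6.66 to 6.96 in Tmem203 null and 6.61 to 6.72 in WT arrays, and its log2 fold change was 0.12 (adjusted p = 0.352).

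Inhba, which encodes the beta A subunit of activin A and inhibin A, was under the detection level on all arrays. Probe set 1458291_at gave 4.73, 4.73, 4.73, 4.37 and 4.54 in Tmem203 null arrays, against 4.78, 4.82, 4.79 and 4.92 in WT arrays, with a log2 fold change of −0.21 and an adjusted p of 0.167. All null arrays lay below all WT arrays, at levels where a probe set was not counted as detected. Probe set 1422053_at gave 3.89 to 4.14 in Tmem203 null and 4.02 to 4.36 in WT arrays (log2 fold change −0.11, adjusted p = 0.462 by limma).

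The 3 activin receptor genes had 7 probe sets, of which 0 passed the limma threshold, 0 had an unadjusted p under 0.05, and their largest log2 fold change in size was 0.12. Over the 6 detected ones, the 95% intervals ran from −0.36 to 0.26 on the log2 scale, so that these fits leave room for changes between 0.778-fold and 1.20-fold. Receptor changes of the size seen for Fst probe set 1434458_at thus lay outside these intervals. Changes of the size seen for Inha lay inside the intervals of some receptor probe sets. The size seen for the other Fst probe set, 0.27, lay inside only as a decrease.

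Acvr1b encodes the type I receptor of activin. Its probe set 1433725_at gave 10.24 to 10.33 in Tmem203 null and 10.04 to 10.38 in WT arrays, a log2 fold change of 0.01 (adjusted p = 0.937 by limma). Probe set 1422098_at gave 5.81 to 6.36 in Tmem203 null and 6.02 to 6.28 in WT arrays, a log2 fold change of −0.12 (adjusted p = 0.551). The groups overlapped on both.

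Acvr2a and Acvr2b encode the type II receptors. For Acvr2a, probe set 1437382_at gave 11.10 to 11.22 in Tmem203 null and 10.87 to 11.26 in WT arrays (log2 fold change 0.08, adjusted p = 0.631 by limma), and 1451004_at gave 10.52 to 10.55 in Tmem203 null and 10.50 to 10.66 in WT arrays (log2 fold change −0.07, adjusted p = 0.431). For Acvr2b, the log2 fold change was 0.08 at probe set 1419140_at, with 6.44 to 6.61 in Tmem203 null and 6.26 to 6.54 in WT arrays, and 0.06 at 1439856_at, with 5.97 to 6.12 in Tmem203 null and 5.85 to 6.09 in WT arrays. Their adjusted p values were 0.556 and 0.630 in that order, and WT arrays spanned a wider range than null arrays for all 4 of these probe sets. The third Acvr2b probe set, 1440525_at, stayed under the detection level at 4.76 to 4.92 in Tmem203 null and 4.69 to 4.92 in WT arrays.

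**Figure D2:**
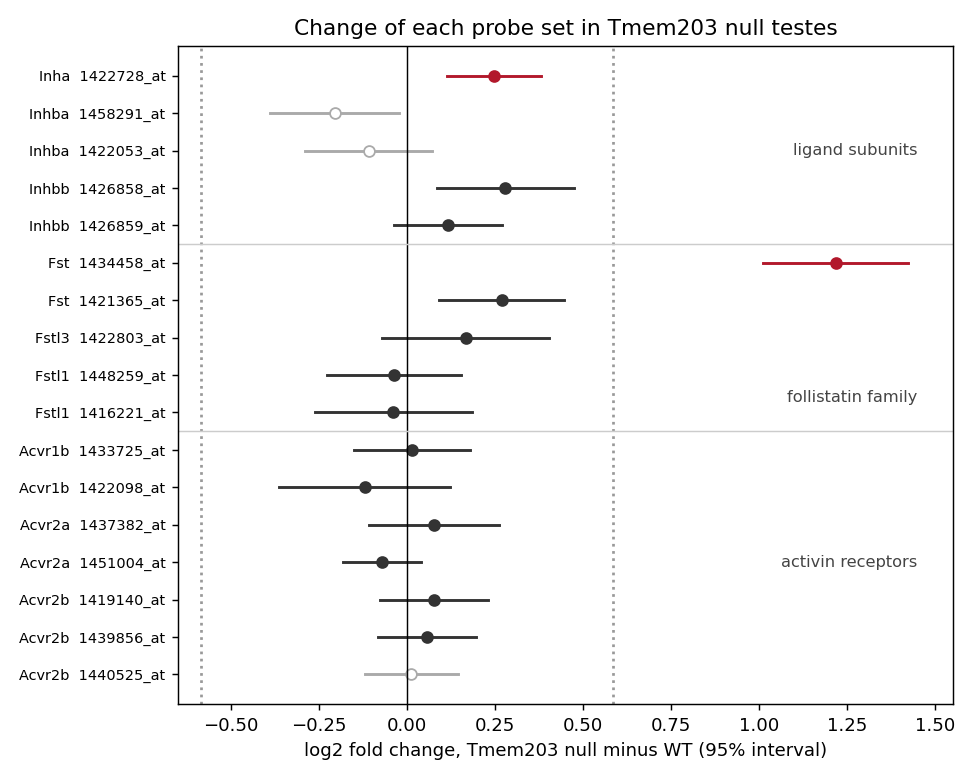
Log2 fold change (Tmem203 null minus WT, horizontal axis) of each of the 17 probe sets with its 95% interval, grouped by role. Red points passed an adjusted p under 0.05, open grey points were not detected on any array, and the dotted lines mark 1.5-fold; Fst probe set 1434458_at at 1.22 is the only point past them.

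The other genes of the pathway were read from 5 lists of 49 genes, of which 44 were measured by a probe set of their own and 37 detected. The others were not analysed here. Each gene was represented by its detected probe set with the smallest p. Of the 37, 5 were higher in Tmem203 null testes, 0 were lower and 32 did not pass (limma), beside 8.03% higher and 6.82% lower over all 16180 genes by the same rule. The median log2 fold change was 0.05 over the 37 genes and 0.12 over the 8 detected genes of the activin, inhibin and follistatin group, against −0.03 over all detected genes. At an unadjusted p under 0.05, 10 of the 37 were higher and 5 lower (limma). The share of all 16180 genes at that threshold was not counted, and the 8.03% and 6.82% are at an adjusted p. These unadjusted counts therefore cannot be read as an excess. The count of 5 that passed as higher was 3 with each array centred on its median. It was 2 or 3 without any single array other than Tmem203 null replicate 2 and WT replicate 3.

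The largest change among these genes was that of Smad3, an intracellular effector of activin receptors. Its probe set 1454960_at had log2 signals of 10.59, 10.32, 10.50, 10.43 and 10.47 in Tmem203 null arrays, against 9.79, 9.63, 9.78 and 9.84 in WT arrays, with no overlap. The log2 fold change was 0.70 (SE 0.07, adjusted p = 3.53e-04 by limma), and the probe set passed under every setting tried. Of the other Smad3 probe sets, 1450472_s_at had a log2 fold change of 0.36 (adjusted p = 0.0322, lost in 6 of the 9 fits that left out an array) and 1450471_at one of −0.01 (adjusted p = 0.957).

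Smad4, the common partner of the receptor-activated SMADs, was the other of the 13 SMADs and SMAD regulators that passed, all 13 being detected. Its probe set 1422486_a_at was at 10.40 to 10.66 in Tmem203 null and 10.11 to 10.41 in WT arrays (log2 fold change 0.32, adjusted p = 0.0379 by limma), and its other probe sets, 1422485_at and 1422487_at, had log2 fold changes of 0.14 and 0.11 that did not pass. The Smad4 call was lost with median centring (adjusted p = 0.0662) and when any single array other than null replicate 2 and WT replicate 3 was left out, with adjusted p of 0.052 to 0.111 in those 7 fits. The ends of the Smad4 ranges met at WT replicate 3, which had 10.41. The median of this list was 0.09.

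Of the other type I and type II receptors, 8 of 8 were detected and 1 passed, Bmpr2, a type II receptor for bone morphogenetic proteins. Bmpr2 probe set 1434310_at was at 10.32 to 10.50 in Tmem203 null and 9.74 to 10.23 in WT arrays (log2 fold change 0.48, SE 0.09, adjusted p = 0.0148 by limma). The groups did not overlap on it. Its other detected probe set, 1419616_at, had 0.24 (adjusted p = 0.343), and the median of the list was 0.28.

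Among 16 co-receptors and extracellular modulators, 15 were measured, 11 were detected and 1 passed: Tgfbr3, or betaglycan, a co-receptor that raises the affinity of inhibin for the type II receptors. Tgfbr3 probe set 1433795_at had 11.50, 11.00, 11.39, 11.14 and 11.15 in Tmem203 null arrays, against 10.97, 10.80, 10.53 and 10.89 in WT arrays. The arrays separated by a narrow margin, with null replicate 2 close to WT replicate 1. The log2 fold change was 0.44 (SE 0.12, adjusted p = 0.0476 by limma), and that of the second probe set, 1425620_at, was 0.41 (adjusted p = 0.0559). The call on 1433795_at was lost when any single array other than null replicate 2 was left out, with adjusted p of 0.0513 to 0.111 in those fits. The median of this list was −0.03.

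Of a list of 5 receptors of reproductive hormones, the 3 that were measured, Fshr, Gnrhr and Amhr2, were all detected. Of them 1 passed, Amhr2, the type II receptor of anti-Müllerian hormone. Amhr2 probe set 1438967_x_at was at 12.93 to 13.14 in Tmem203 null and 12.55 to 12.79 in WT arrays (log2 fold change 0.31, adjusted p = 0.0251 by limma), and its other probe sets had 0.29 and 0.31, both with an adjusted p of 0.0655. The Amhr2 call was lost in 5 of the 9 fits that left out an array, those without null replicates 1, 3 and 5 and WT replicates 1 and 4 (adjusted p 0.052 to 0.0649), and its probe set is of a kind open to cross-hybridization. Fshr, the receptor of follicle-stimulating hormone, which inhibin B controls, was named after its values were seen. Its log2 fold change was 0.37 with an adjusted p of 0.136, and the groups met at 7.11, the lowest null and the highest WT value. The paper reported serum levels of follicle-stimulating hormone as comparable in WT and null mice, without showing the data. Of 7 other activin-class ligands, 5 were measured, 2 were detected and 0 passed (limma; 1 was lower at an unadjusted p under 0.05), and the smallest p was that of Nodal (log2 fold change −0.28, adjusted p = 0.131).

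**Figure D3:**
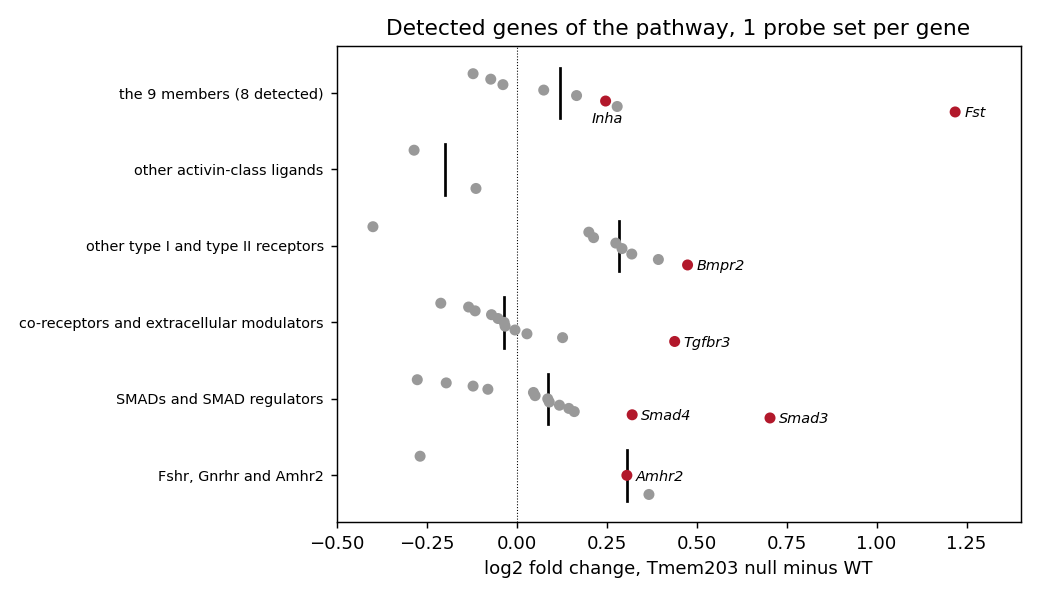
Log2 fold change (Tmem203 null minus WT, horizontal axis) of each detected gene of the activin, inhibin and follistatin group, where the probe set with the smallest p stands for a gene, and of the 5 lists of other pathway genes. Red points passed an adjusted p under 0.05 and are named, grey points did not, and vertical bars are list medians, from −0.20 for other activin-class ligands to 0.31 for Fshr, Gnrhr and Amhr2.

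Markers of Sertoli cells, the main source of inhibin B, were higher in Tmem203 null testes. Of 16 Sertoli cell markers 15 were measured and all 15 detected. Of these, 10 passed as higher and 0 as lower, among them Shbg (log2 fold change 0.65) and Ctsl (0.33). Over all probe sets, detected or not, 4.12% passed as higher and 3.36% as lower. The mean log2 signal of the 15 markers was 11.13 to 11.25 in Tmem203 null and 10.83 to 11.02 in WT arrays, a difference of 0.28 with no overlap. Beside it, the log2 fold change was 0.25 for Inha, 0.28 and 0.12 for the Inhbb probe sets, of which neither passed, and 1.22 and 0.27 for the Fst probe sets. Amh, a Sertoli cell hormone that is mostly silent in the adult and was named after its values were seen, was at 5.50 ± 0.06 in Tmem203 null and 5.51 ± 0.04 in WT arrays (SD, n = 5 and 4). The part of Sertoli cell content in the results for Inha, Inhbb and Fst was not tested.

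**Figure D4:**
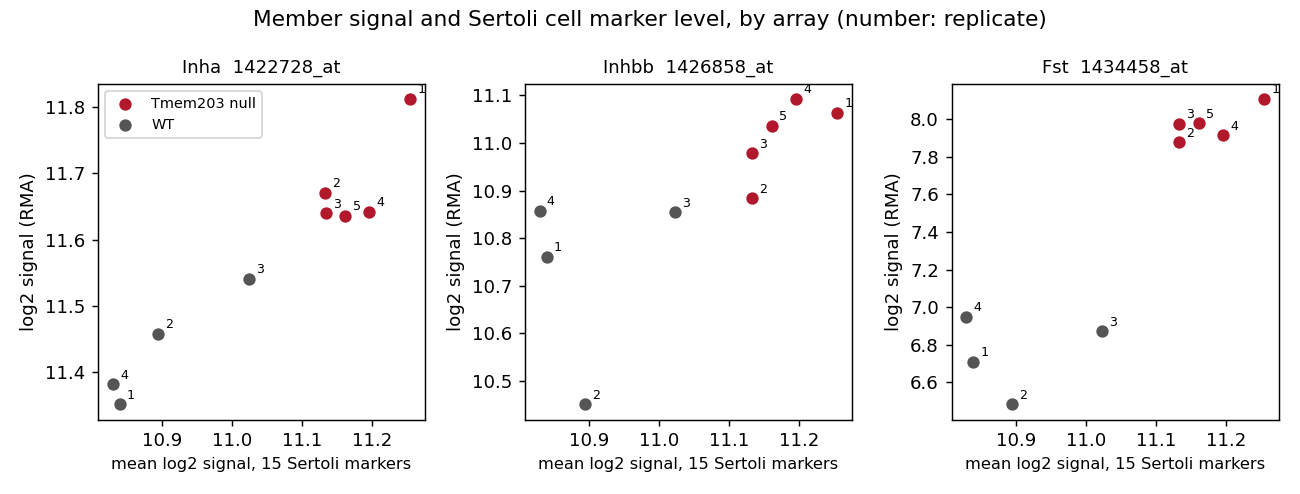
Log2 signal (RMA, vertical axis) of Inha 1422728_at, Inhbb 1426858_at and Fst 1434458_at against the mean log2 signal of 15 Sertoli cell markers (horizontal axis) on the same array, Tmem203 null in red and WT in grey, numbered by replicate. The null arrays lie right of the WT arrays (11.13 to 11.25 in Tmem203 null, 10.83 to 11.02 in WT) and above them in all 3 panels, and the vertical gap is widest for Fst.

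Some markers of other somatic cells were also higher in Tmem203 null testes. The mean of 6 Leydig cell markers was 11.37 to 11.66 in Tmem203 null and 10.92 to 11.44 in WT arrays, a difference of 0.41 with WT replicate 3 inside the null range, and 3 of the 6 passed as higher, among them Hsd3b1 (log2 fold change 0.64) and Hsd17b3 (0.45). The mean of 7 macrophage markers was 8.88 to 9.07 in Tmem203 null and 8.44 to 8.84 in WT arrays, a difference of 0.28. Of the 7, 2 passed as higher, Mrc1 (0.41) and Cx3cr1 (0.54). Beside these counts, 4.12% passed as higher and 3.36% as lower over all probe sets, detected or not. The endothelial list differed by 0.14 and the list of peritubular myoid and smooth muscle cells by −0.09, with 0 of 6 markers passed in each (limma; 2 and 0 in that order at an unadjusted p under 0.05, all higher). The germ cell lists differed by 0.08 for spermatogonia, −0.05 for spermatocytes, −0.04 for round spermatids and −0.01 for elongating spermatids. Of the germ cell markers 1 passed, the spermatocyte gene Dmc1, as lower. The elongating spermatid list averaged 14.22 to 14.27 in Tmem203 null and 14.24 to 14.27 in WT arrays. Whether signals this high can register fewer cells was not tested. By flow cytometry of DNA content at a later age, the paper reported far fewer condensed haploid cells in null testes. At a much younger age it found DNA staining no different from WT. By microscopy at still later ages it described the reduction of late spermatids as subtle, though its summary of these findings calls the reduction severe. The part of somatic and germ cells in the results for the ligand subunits and Fst was not tested.

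The genes whose pattern over the 9 arrays was most like that of Fst probe set 1434458_at were taken by the root mean square difference of log2 signals, each probe set centred on its own mean. The nearest were Svs6 (0.13), a seminal vesicle secretory protein gene, Lrrc2 (0.13), Ttr (0.15), the transthyretin gene, Tnfrsf12a (0.15), the receptor of the cytokine TWEAK, and Flt4 (0.17), which encodes a vascular endothelial growth factor receptor. Their log2 fold changes were 1.06 for Svs6 1418548_at, 1.24 for Lrrc2 1427388_at, 1.29 for Ttr 1459737_s_at, 1.27 for Tnfrsf12a 1418572_x_at and 1.26 for Flt4 1444052_at. Each was thus close to the 1.22 of Fst, as the measure requires. Lrrc2 (4.49 to 4.74) and Ttr (4.21 to 4.75) were under the detection level on all WT arrays. Both counted as detected through the Tmem203 null arrays only, which limits what their fold changes mean. Markers of seminal vesicle and prostate, the list that holds Svs6, averaged 5.53 to 5.68 in Tmem203 null and 5.40 to 5.65 in WT arrays. Of the 6, 2 passed as higher and 2 as lower, or 2 higher and 1 lower among the 3 that were detected. The shares over all probe sets were 4.12% higher and 3.36% lower. Epididymal markers, 3 of 5 of them detected, averaged 4.67 to 4.98 in Tmem203 null and 4.83 to 5.04 in WT arrays. The part of these tissues in the results was not tested.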

How the data were processed

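Total RNA of 5 Tmem203 null and 4 WT testes was hybridised to 1 array each. The authors deposited log2 values, 1 for each probe set and array, made from quality-checked scans by Robust Multichip Average (background adjustment, quantile normalization, summarisation). Limma is the tool named in the submitters' processing notes, and its version is not given in the sources used here. Scans were not analysed here, so scan batches were not tested.

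For each probe set the groups were compared by lmFit and eBayes (limma 3.58.1, run under R 4.3.3), with Benjamini-Hochberg adjustment over 45037 probe sets after leaving out 64 controls. A probe set passed at an adjusted p under 0.05. The thresholds of the methods add a 1.5-fold change, detection (a signal of 32, or log2 of 5, on 1 array or more) and annotation to 1 gene only. Of the probe sets, 34945 have 1 gene symbol, 932 several and 9160 none in the platform annotation. Symbols were updated through Entrez identifiers (34741 matched) to the RefSeq table of GRCm38.p6, used for names only.

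The 9 genes, the pathway and marker lists and the tests were chosen with earlier results of these data known. The text names every probe set of the 9 genes, pathway genes that passed (or that with the smallest p in a list where none passed), up to 2 markers of the lists described, and the 5 genes nearest to the probe set with the smallest p. Fshr, Amh and the 3 adipocyte markers were named outside this rule, after their values were seen. Marker lists use each gene's brightest probe set. Before use, the fit was tested on simulated data with 200 changed probe sets. Alternatives covered normalization, prior variance, array weights, filters, the replicate number as a block, and each array left out. Figures were drawn in Python 3.11.15.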

Additional observations from a re-analysis of the deposited data

Results flagged for a closer look

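Dixon's test at the 95% level was applied to 46 groups, the Tmem203 null and the WT arrays for each of the 17 probe sets of the 9 genes and the 6 probe sets of pathway genes that passed. It set apart 2 samples, where chance sets apart about 1 in 20 groups. For Inha probe set 1422728_at, Tmem203 null replicate 1 lay above the rest of its group at 11.81, with the other null arrays at 11.64 to 11.67. Without that array the log2 fold change of Inha was 0.21 with an adjusted p of 0.0732 (limma). For Acvr2a probe set 1451004_at, WT replicate 2 lay below the rest of its group at 10.50, with the other WT arrays at 10.64 to 10.66.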

How the results depend on the processing

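Fst probe set 1434458_at passed under all 16 alternative fits, with log2 fold changes of 1.19 to 1.22 (adjusted p up to 0.00715) over the 7 that kept the arrays or used a block and 1.13 to 1.28 over the 9 that left out an array, and the number of genes of the group that met the thresholds of the methods stayed at 1 higher and 0 lower in each of the 16. The count of 2 probe sets higher became 1 with median centring, 3 with array weights and with a trended and robust prior variance, and 1 to 4 when an array was left out: 4 without WT replicate 3 (both of Fst, and those of Inha and Fstl3) and 1 without any of the other arrays. Inha lost its call with median centring (0.22, adjusted p = 0.0771), and leaving out arrays gave 0.21 to 0.28. Among probe sets that had not passed, Inhbb 1426858_at passed with the trended and robust prior (0.28, adjusted p = 0.0472) and Fst 1421365_at with array weights (0.31, adjusted p = 0.0355). The 5 pathway genes higher, counted under each fit after seeing the data, became 3 with median centring and 3 without probe sets open to cross-hybridization, 2 to 6 when an array was left out, and 0 lower became 0 to 2 (2 without WT replicate 4). Fold changes near 0 that did not pass turned sign: with array weights Fstl1 1416221_at was at 0.0079 and Acvr1b 1433725_at at −0.043, and with median centring Acvr1b 1433725_at was at −0.018 and Acvr2b 1440525_at at −0.019. When an array was left out, Fstl1 1448259_at ran over −0.093 to 0.016, Fstl1 1416221_at over −0.12 to 0.048, Acvr1b 1433725_at over −0.064 to 0.051 and Acvr2b 1440525_at over −0.029 to 0.048. The mean of the seminal vesicle and prostate markers differed by 0.33 over all detected probe sets and by 0.07 over the brightest ones. The cause of these changes was not tested.

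With the replicate number as a block over replicates 1 to 4, 1174 probe sets passed on the whole array, against 1925 for the same arrays without it and 3367 for all arrays, and 1 probe set of the group and 1 pathway gene were higher. Inha then had 0.26 with an adjusted p of 0.153. Deviations of null and WT arrays with the same number had correlations of −0.07 to 0.10, and only number 2 correlated best with its own number, so the numbers were not taken to pair the samples. A log2 signal under 5 limits what can be read for Inhba and Acvr2b 1440525_at.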
